A study of Mus musculus with 9 samples.

Results

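The genes described here are 10 immediate early genes of the mouse, namely Fos, Fosb, Fosl1, Jun, Junb, Egr1, Ier2, Ier3, Zfp36 and Dusp1. They were found by matching the Ensembl gene identifier of each row of the deposited expression table to these symbols, and each of the 10 had 1 row among 52550. The 9 RNA sequencing libraries came from 4T1, which is a carcinoma line of the mouse mammary gland, in 3 groups of 3: LY500307 with PD-1 treatment (LY500307+PD-1), PD-1 treatment alone (PD-1) and control. LY500307 activates estrogen receptor beta. PD-1 is a receptor of T cells that acts as an immune checkpoint. The design asks what PD-1 treatment does to the transcripts of 4T1 samples and what LY500307 adds to it. The labels name PD-1 itself as the treatment and not an antibody, and give no dose, time, age or genotype. PD-1 replicates 2 and 3 carry PD-2 and PD-3 in their treatment label and were placed in the PD-1 group by their titles. Whether the replicates were separate cultures or animals is not said in the labels. The p-values therefore cover the spread among these 9 libraries, and that spread may be technical.

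Immediate early genes are transcribed within minutes of a stimulus, because the transcription factors that switch them on, such as the serum response factor with its ETS-family partners and CREB, already sit in the cell and need only to be phosphorylated. Growth factors, cytokines and stress act on them through the ERK, p38 and JNK kinases. Their mRNAs are short-lived, so that levels in unstimulated tissue are usually low. Fos-family and Jun-family proteins pair through leucine zippers into the transcription factor AP-1, Egr1 is a zinc finger transcription factor, and Zfp36 and Dusp1 belong to the feedback that ends the response. In tumour samples such transcripts can come from the carcinoma cells and from any other cell present, and they can respond to the handling of tissue.

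Markers of several cell types were present besides those of mammary epithelium. All 7 epithelial markers listed (Epcam, Krt8, Krt18, Krt19, Cdh1, Krt7, Cldn4) were at 1 FPKM or more in each library, and so were all 7 markers of monocytes and macrophages, of fibroblasts and of endothelium. FPKM counts fragments relative to transcript length and library depth, and was inferred here as the unit from the values. Summed epithelial markers ran from 1634 to 3562 FPKM in LY500307+PD-1, from 1492 to 2369 FPKM in PD-1 and from 1703 to 2565 FPKM in control. Of 4 B and plasma cell markers none reached 1 FPKM in every library, and their sum was between 0.334 and 1.06 FPKM. The labels call the samples cells and do not say how markers of other cell types come to be present. A fit to the low values of the table gave 8200000 to 8610000 fragments per library. This depth is rough, since most of those values did not lie near a whole number of fragments. In such mixed samples, fewer cells of a type and less RNA per cell cannot be told apart.

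None of the 10 genes differed between groups in limma's test. In PD-1 against control, 0 of 10 passed at an adjusted p under 0.05, and the background over all 13990 genes tested was 0%. In LY500307+PD-1 against control it was likewise 0 of 10 against a background of 0%. For LY500307+PD-1 against PD-1 it was 0 of 10 against 0%. At an unadjusted p under 0.05 the members counted 0 of 10 in each comparison, where the background was 2.44%, 4.01% and 2.84% in the same order of comparisons. The members' groups overlapped in every comparison, while groups that did not overlap made up 6.68%, 7.94% and 7.6% of all genes tested. For each of the 10 genes, the ratio of highest to lowest library in its widest group exceeded that of highest to lowest group mean. Single libraries in the widest of 3 groups vary more readily than means do, and the share over all genes was not computed. This count therefore says nothing particular about the members. Both comparisons against control share the control libraries, both that involve LY500307+PD-1 share its libraries, and PD-1 likewise enters 2 of the 3.

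**Figure D1:**
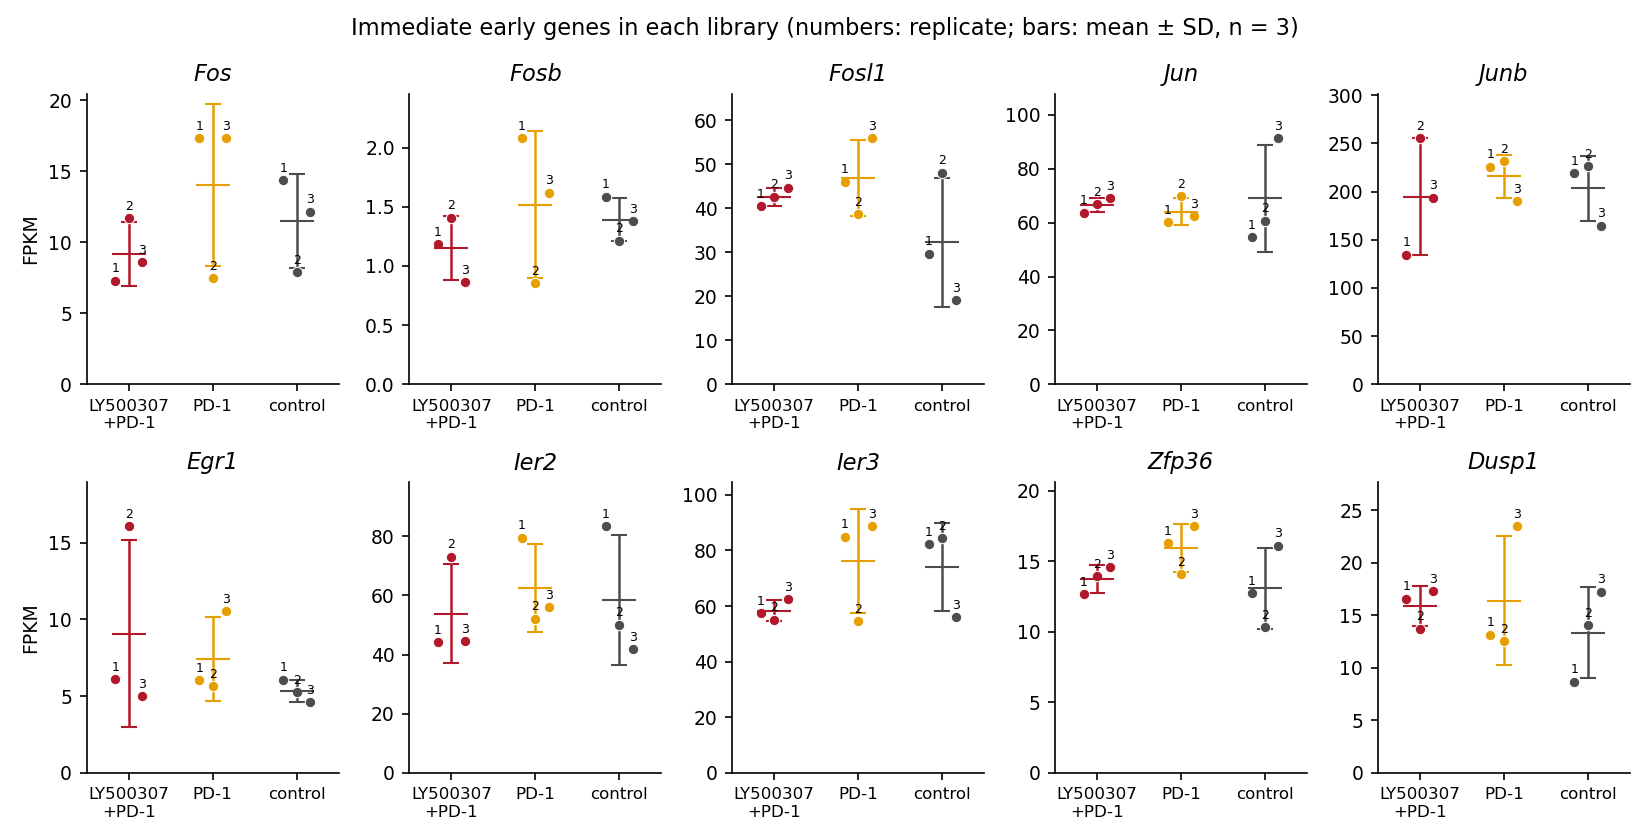
FPKM (vertical axes, from 0) of the 10 immediate early genes in each of the 9 libraries, numbered by replicate, with the mean and SD of 3 libraries per group (horizontal axes: LY500307+PD-1, PD-1, control). In each panel the groups overlap, and for Egr1 the LY500307+PD-1 replicate 2 library stands at 16.1 FPKM while the other 2 of its group are at 6.11 and 5.02 FPKM.

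The Fos-family genes encode AP-1 subunits that do not pair with each other and need a partner such as a Jun-family protein. Fos (ENSMUSG00000021250.13, GRCm38 chromosome 12, 85473890 to 85477273) stood at 7.29, 11.7 and 8.60 FPKM in LY500307+PD-1 replicates 1, 2 and 3, at 17.4, 7.46 and 17.3 FPKM in PD-1, and at 14.4, 7.88 and 12.2 FPKM in control. The 2 highest libraries were both PD-1, but the remaining PD-1 library was among the lowest, and its range of 2.33-fold within PD-1 exceeded the 1.53-fold between the highest and lowest group mean. The log2 fold change was 0.22 (SE 0.33) in PD-1 against control, -0.28 (SE 0.33) in LY500307+PD-1 against control and -0.50 (SE 0.33) in LY500307+PD-1 against PD-1. Fold changes here are of FPKM + 1, a scale that understates the change of low genes. Without PD-1 replicate 2 the first value was 0.59, and without control replicate 2 it was -0.01. With any 1 library left out, the value in LY500307+PD-1 against control lay between -0.11 (without control replicate 1) and -0.50 (without control replicate 2), and that in LY500307+PD-1 against PD-1 between -0.31 (without PD-1 replicate 1 or 3) and -0.87 (without PD-1 replicate 2).

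Fosb (chromosome 7, 19302696 to 19310051), which encodes another such subunit, was the lowest of the 10 genes. It stood at 1.19, 1.41 and 0.865 FPKM in LY500307+PD-1, at 2.08, 0.855 and 1.62 FPKM in PD-1 and at 1.58, 1.22 and 1.38 FPKM in control. The library order followed that of Fos closely, with PD-1 replicate 1 highest. At the inferred depth, which is rough, the lowest value, in PD-1 replicate 2, corresponds to about 8.03 fragments by the shortest annotated transcript. By the longest it corresponds to about 27.9, so that Fosb is the least precisely measured of the 10. Its log2 fold changes lay between -0.20 (SE 0.21) in LY500307+PD-1 against PD-1 and 0.05 (SE 0.21) in PD-1 against control.

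Fosl1 (also called Fra-1; chromosome 19, 5447547 to 5455946), a subunit that is often abundant in mesenchymal-like carcinoma cells, was the most abundant of the 3 Fos-family members. It stood at 40.5, 42.6 and 44.7 FPKM in LY500307+PD-1, at 46.1, 38.7 and 56.0 FPKM in PD-1, and at 29.7, 48.1 and 19.2 FPKM in control. The LY500307+PD-1 libraries lay close together. PD-1 spread more widely and control most widely, where replicate 2 exceeded all but 1 treated library and replicate 3 was the lowest of all 9. In PD-1 against control the estimate was 0.60 on the log2 scale (SE 0.28), its 95% interval reached from -0.03 to 1.24, and limma's unadjusted p of 0.060 (adjusted p = 1.00) was the smallest of any member there. Without control replicate 3 the value was 0.29, and without control replicate 2 it was 0.93. In LY500307+PD-1 against control it was 0.48 (SE 0.28, -0.15 to 1.12), with 0.17 when control replicate 3 was left out and 0.81 when control replicate 2 was. Of 2033 exonic bases of Fosl1, 1163 are also exonic in Ccdc85b on the opposite strand, which stood between 107 and 147 FPKM. The labels name a stranded kit, but the use of strand in counting is not given in the sources used here, so that reads of both genes may be mixed. The same limit touches fewer bases of Jun (232 of 3189 exonic bases, shared with Junos), Junb (173 of 2301, with Prdx2), Zfp36 (125 of 3470, with Gm44710) and Dusp1 (11 of 3311, with Ergic1).

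Fosl1 made up 82.7%, 76.5% and 82.5% of the summed FPKM of Fos, Fosb and Fosl1 in LY500307+PD-1, 70.3%, 82.3% and 74.7% in PD-1, and 65.0%, 84.1% and 58.6% in control. Fos contributed between 13.8% and 37.2%. The ratio of Fosl1 to Fos ranged from 1.58 in control replicate 3 to 6.10 in control replicate 2, so that both extremes lay in the control group.

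Jun and Junb encode the partners, of which Jun activates strongly and Junb can restrain Jun. Jun (chromosome 4, 95049034 to 95052222), a gene with a single exon, stood at 63.6, 66.8 and 68.98 FPKM in LY500307+PD-1, at 60.0, 69.8 and 62.5 FPKM in PD-1 and at 54.7, 60.8 and 91.5 FPKM in control. Its SD of log2(FPKM + 1) over the 9 libraries was the lowest of the 10, at 0.206, with Zfp36 close at 0.214. Within groups Zfp36 was steadier, with an SD of 0.200 against 0.235 for Jun. Control replicate 3 held the outlying high value of Jun. The 95% interval of its log2 fold change ran from -0.46 to 0.32 in PD-1 against control, from -0.41 to 0.38 in LY500307+PD-1 against control and from -0.34 to 0.45 in LY500307+PD-1 against PD-1. These are among the narrowest intervals here, and they leave out a 2-fold difference in either direction.

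Control replicate 3, with the highest Jun, also had the highest summed level of the 7 monocyte and macrophage markers, at 2348 FPKM against 711 to 1442 FPKM in the other 8 libraries, and of the T and NK cell markers, at 21.6 FPKM against 5.71 to 17.4 FPKM. The same library was lowest for Fosl1, Egr1 and Ier2. The part of these cell types in those values was not tested.

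Junb (chromosome 8, 84974484 to 84978718) was the most abundant member, above Ier3, the next in order, in 9 of 9 libraries. It stood at 135, 256 and 194 FPKM in LY500307+PD-1, at 226, 231 and 190.2 FPKM in PD-1, and at 219, 226 and 164 FPKM in control. LY500307+PD-1 held both the lowest and the highest library, 1.90-fold apart. Group means were 195 ± 60.6, 216 ± 22.4 and 203 ± 33.8 FPKM in LY500307+PD-1, PD-1 and control (SD, n = 3 each), and no log2 fold change exceeded 0.19 in size (SE 0.22). Junb made up between 64.3% and 80.0% of the sum of Jun and Junb. Jund, a Jun-family gene outside the 10 that is expressed steadily in most cells, stood higher still, between 305 and 524 FPKM.

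The DNA just before the starts of Fos, Fosb, Jun and Junb is shown because these are AP-1 genes compared above, of which Fos and Fosb followed each other across libraries. Each stretch covers positions -180 to -21 from the RefSeq start on GRCm38.p6, reads 5′ to 3′ in the direction of the gene and overlaps no exon of GENCODE M21. Capitals mark TGACG, the core of the cAMP response element that CREB binds, and GCGNGGGCG, the consensus of Egr1 and its relatives, each searched on both strands.
Fos (chr12:85473710-85473869, plus strand): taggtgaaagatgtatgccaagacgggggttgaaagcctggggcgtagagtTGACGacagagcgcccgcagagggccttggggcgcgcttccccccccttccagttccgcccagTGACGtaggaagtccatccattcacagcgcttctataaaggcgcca
Fosb (chr7:19310066-19310225, minus strand): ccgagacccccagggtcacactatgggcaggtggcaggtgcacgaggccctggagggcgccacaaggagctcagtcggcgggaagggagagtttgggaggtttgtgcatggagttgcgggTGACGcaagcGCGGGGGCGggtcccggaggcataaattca
Jun (chr4:95052243-95052402, minus strand): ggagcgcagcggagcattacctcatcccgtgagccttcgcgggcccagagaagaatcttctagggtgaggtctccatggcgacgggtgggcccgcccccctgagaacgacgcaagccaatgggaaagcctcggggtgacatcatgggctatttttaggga
Junb (chr8:84978769-84978928, minus strand): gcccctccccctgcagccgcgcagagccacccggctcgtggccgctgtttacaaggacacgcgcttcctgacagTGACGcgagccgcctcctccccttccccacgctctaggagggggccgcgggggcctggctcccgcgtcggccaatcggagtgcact

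Fos holds TGACG at -129 to -125 and again at -66 to -62, with a TATAAA box at -33 to -28. Fosb holds TGACG at -60 to -56, nearly the same distance from its start, followed by an Egr consensus at -50 to -42. Junb has TGACG at -106 to -102, and Jun matches neither consensus in this stretch. The RefSeq table used here matched 7 of the 10 genes, all but Fosl1, Egr1 and Ier2, and 250 bases before each start were searched. Of these, 4 held TGACG (Fos, Fosb, Junb and Dusp1), against 17.8% of all 32851 promoters in the table, and 2 held the Egr consensus (Fosb and Zfp36), against 4.7%. The bases searched were 54.4% (Ier3) to 68.8% (Fosb) G or C in the 7 genes, against a median of 52.4% over all promoters. The shares over all promoters were not matched for base composition, so the counts do not measure an excess. The full element TGACGTCA, which contains TGACG, was matched by Dusp1 alone, at -143 to -136 (1.55% of all), and the CArG box of the serum response factor by Zfp36 alone, at -58 to -49 (1.47% of all). An element farther than 250 bases before a start would be missed, and so would a variant of the letters searched. The stretch of Jun, for instance, holds tgacatca, which is close to the full element TGACGTCA. No match here therefore does not mean that a gene lacks such an element. TGANTCA, the AP-1 consensus, was matched by 0 of 7 (6.75% of all). A match describes letters and says nothing of binding in these cells.

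Egr1 (chromosome 18, 34859823 to 34864984), a zinc finger factor induced by growth factors through ERK, was the most variable of the 10. It stood at 6.11, 16.1 and 5.02 FPKM in LY500307+PD-1, at 6.05, 5.67 and 10.5 FPKM in PD-1, and at 6.06, 5.25 and 4.62 FPKM in control. Among them 2 treated libraries, LY500307+PD-1 replicate 2 and PD-1 replicate 3, stood out, and the other 4 treated libraries lay between 5.02 and 6.11 FPKM, close to control. The log2 fold change was 0.38 (SE 0.37, 95% interval -0.47 to 1.22) in PD-1 against control and 0.52 (SE 0.37, -0.33 to 1.36) in LY500307+PD-1 against control. Without LY500307+PD-1 replicate 2 the second value was 0.06, so that this library decides its size. Likewise, without PD-1 replicate 3 the first value was 0.13.

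LY500307+PD-1 replicate 2 also had the highest summed epithelial markers, at 3562 FPKM, the highest summed skeletal muscle markers, at 109 FPKM against 13.8 to 29.5 FPKM in the other 8 libraries, and the lowest neutrophil markers, at 56.6 FPKM against 104 to 704 FPKM. Junb and Egr1 were both at their highest in it. Whether these markers have a part in those values was not tested.

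Ier2 and Ier3 are small intronless or nearly intronless genes, of which Ier2 encodes a nuclear protein and Ier3 a regulator of cell survival that NF-kB also induces. Ier2 (chromosome 8, 84661331 to 84662852) stood at 44.1, 73.1 and 44.5 FPKM in LY500307+PD-1, at 79.5, 52.2 and 56.0 FPKM in PD-1 and at 83.4, 50.1 and 41.9 FPKM in control. A single library in each group was high. Ier3 (chromosome 17, 35821684 to 35822923) stood at 57.5, 55.1 and 62.4 FPKM in LY500307+PD-1, at 84.9, 54.6 and 88.7 FPKM in PD-1 and at 82.3, 84.4 and 56.0 FPKM in control. All 3 LY500307+PD-1 libraries lay in the lower range, which 1 PD-1 and 1 control library shared, while the remaining 4 lay between 82.3 and 88.7 FPKM with nothing between. Its log2 fold change was -0.32 (SE 0.21, 95% interval -0.80 to 0.16) in LY500307+PD-1 against control and -0.35 (SE 0.21, -0.83 to 0.13) in LY500307+PD-1 against PD-1, with limma adjusted p of 1 and 1.00.

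Zfp36 and Dusp1 act in negative feedback. Zfp36 (tristetraprolin; chromosome 7, 28376784 to 28380253), which binds AU-rich elements and speeds the decay of cytokine and immediate early mRNAs, stood at 12.7, 13.9 and 14.6 FPKM in LY500307+PD-1, at 16.3, 14.1 and 17.5 FPKM in PD-1 and at 12.7, 10.3 and 16.1 FPKM in control. Control replicate 3 lay within the PD-1 range and the other 2 control libraries lay below it. The log2 fold change in PD-1 against control was 0.28 (SE 0.16, 95% interval -0.07 to 0.64), with 0.14 when control replicate 2 was left out and 0.44 when control replicate 3 was. Dusp1 (chromosome 17, 26505590 to 26562128), a phosphatase that inactivates p38, JNK and ERK, stood at 16.6, 13.7 and 17.3 FPKM in LY500307+PD-1, at 13.1, 12.6 and 23.5 FPKM in PD-1, and at 8.69, 14.1 and 17.2 FPKM in control. Its extremes were PD-1 replicate 3 and control replicate 1. The log2 fold change was 0.27 (SE 0.28) in PD-1 against control, 0.28 (SE 0.28) in LY500307+PD-1 against control and 0.00 (SE 0.28) in LY500307+PD-1 against PD-1. Without control replicate 1 the values against control were 0.01 for PD-1 and 0.02 for LY500307+PD-1, without control replicate 3 they were 0.47 and 0.48, and without PD-1 replicate 3 that of PD-1 was -0.0019.

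Taking all 10 genes by the sign of the log2 fold change, 9 were higher in PD-1 than in control. In LY500307+PD-1, 4 were higher than in control and 3 higher than in PD-1. Those 3 include Dusp1, at 0.0050, although its mean FPKM was 15.9 in LY500307+PD-1 and 16.4 in PD-1. The median log2 fold changes of the 10 genes were 0.18, -0.06 and -0.20, where the medians over all genes tested were -0.01, 0.00 and 0.00. When any 1 library was left out the medians ranged from 0.05 to 0.31, from -0.13 to 0.08 and from -0.30 to -0.10. The 95% intervals of all 10 genes held 0 in each comparison. They lay within 1 log2 unit of 0 for 8 of 10 genes in PD-1 against control, 7 of 10 in LY500307+PD-1 against control and 9 of 10 in LY500307+PD-1 against PD-1. On this scale 1 unit stands for more than a 2-fold difference in FPKM, most so for Fosb, the lowest gene. The bounds farther than 1 unit were those of Fosl1 and Egr1 in PD-1 against control, of Fosl1, Egr1 and Fos in LY500307+PD-1 against control and of Fos in LY500307+PD-1 against PD-1. In 29 of these 30 fold changes, some of them close to 0, leaving out 1 library moved the value by over 1.5 times, the exception being Zfp36 in LY500307+PD-1 against PD-1.

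**Figure D2:**
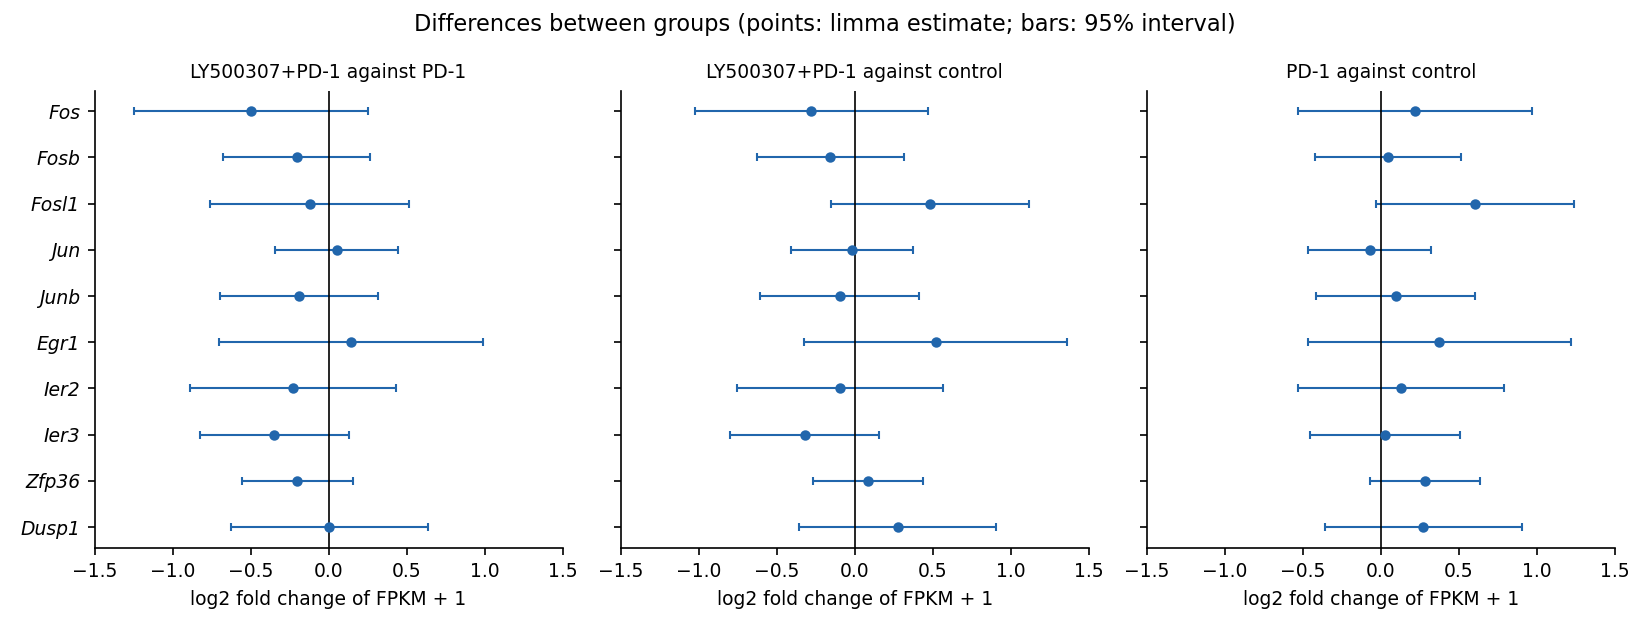
Log2 fold change of FPKM + 1 (horizontal axes) of each of the 10 genes in the 3 comparisons, with the limma estimate as a point and its 95% interval as a bar. Every interval crosses 0, and the estimate farthest from 0 is that of Fosl1 in PD-1 against control, at 0.60.

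The genes differed in level, and the tiers named here go by mean FPKM. Mean FPKM over the 9 libraries was 205 for Junb, then 69.5 for Ier3, 66.5 for Jun and 58.3 for Ier2, then 40.6 for Fosl1. Dusp1 at 15.2, Zfp36 at 14.2, Fos at 11.6 and Egr1 at 7.26 formed a lower tier, and Fosb at 1.36 stood apart at the bottom. Neighbours changed places between libraries, also between tiers. Ier3 exceeded Jun in 4 of 9 libraries, Jun exceeded Ier2 in 6 of 9 and Ier2 exceeded Fosl1 in 7 of 9. Dusp1 exceeded Zfp36 in 5 of 9, Zfp36 exceeded Fos in 7 of 9 and Fos exceeded Egr1 in 8 of 9. Among neighbours, the ranges over the libraries lay apart only for Junb from Ier3 and for Egr1 from Fosb. Fosl1 exceeded Dusp1 in 9 of 9, and Egr1 exceeded Fosb in 9 of 9.

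The members varied more between libraries than most genes did. The SD of log2(FPKM + 1) over the 9 libraries had a median of 0.34 for the 10 members and 0.21 for all 13990 genes tested, and 9 of the 10 members lay above the median of all genes. It was 0.52 for Egr1, 0.47 for Fos and 0.44 for Fosl1, and 0.21 for both Jun and Zfp36. Zfp36 and Fosb lay only just above the median, at percentiles 51.8 and 57.1 of all genes. The comparison was not matched for level, and the scale understates the change of low genes. The median of the mean FPKM over all genes tested was 6.43. The grouping accounted for a median of 17.6% of the variance of the members and 17.0% over all genes tested, with the highest share in Fosl1 (38.6%) and the lowest in Jun (2.39%). Most of the variance of each member thus lay between libraries of the same group.

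By library, PD-1 replicate 3 had 8 of the 10 genes above their own median, and it was the highest of the 9 libraries for Fosl1, Ier3, Zfp36 and Dusp1. PD-1 replicate 1 had 7 of 10 above the median and was the highest for Fos and Fosb. PD-1 replicate 2 had 2 of 10, as did LY500307+PD-1 replicate 1. The mean deviation of the 10 genes from their means was -0.19, 0.17 and -0.10 on the log2 scale in LY500307+PD-1, 0.20, -0.14 and 0.30 in PD-1 and -0.02, -0.08 and -0.14 in control. Each treated group thus held libraries on both sides of 0. Summed markers of neutrophils were 188, 56.6 and 384 FPKM in LY500307+PD-1, 478, 104 and 704 FPKM in PD-1 and 185, 262 and 264 FPKM in control. PD-1 replicates 3 and 1, with the 2 highest sums, were also the 2 libraries with the highest mean deviation. The other libraries did not keep this order. LY500307+PD-1 replicate 3, at 384 FPKM, had a mean deviation of -0.10, and LY500307+PD-1 replicate 2, with the lowest sum, had 0.17. Of the 7 neutrophil markers 5 were at 1 FPKM or more in all libraries, and none was at 0 throughout. PD-1 replicates 1 and 3 also had the highest summed erythroid markers, at 137 and 133 FPKM. Pearson's r with the mean deviation was taken for the mean log2 deviation of each marker list, except B and plasma cells. It ran from -0.475 (monocytes and macrophages) to 0.72 (erythroid cells), and it was 0.32 for neutrophils. The part of neutrophils or erythroid cells in the members' levels was not tested.

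**Figure D3:**
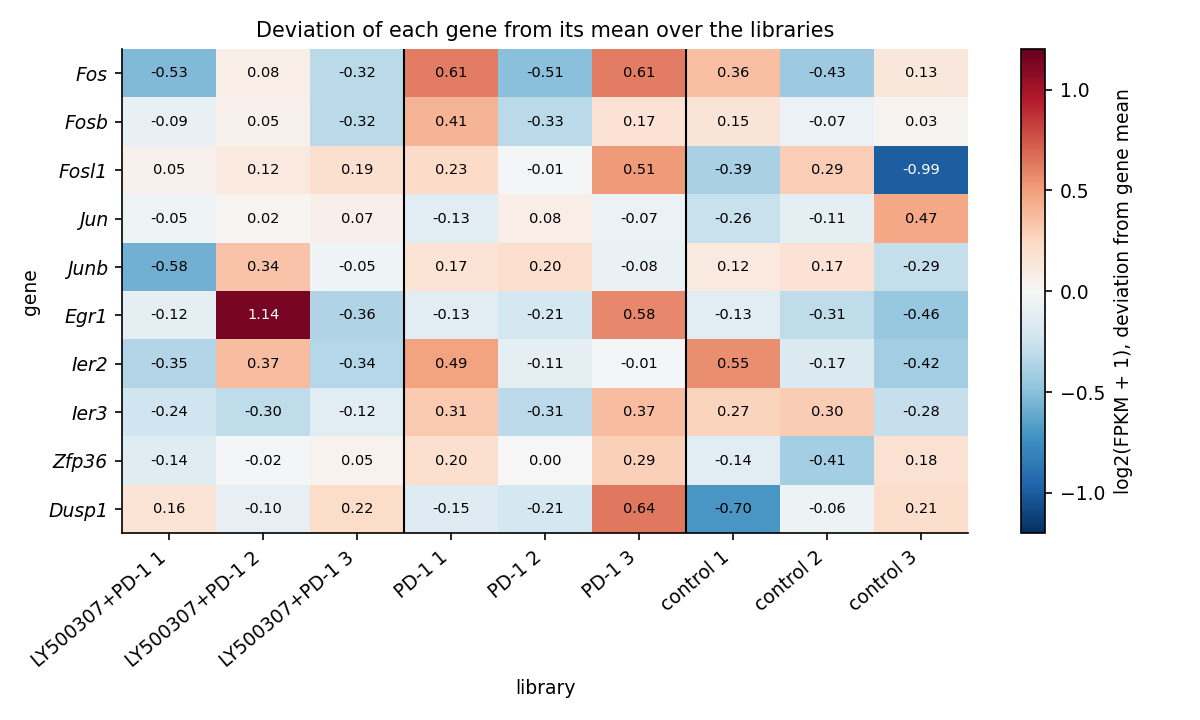
Deviation of log2(FPKM + 1) from the gene's mean over all libraries (colour and printed value), for each of the 10 genes (rows) in each library (columns: LY500307+PD-1, PD-1 and control, with lines between groups). The largest deviations are those of Egr1 in LY500307+PD-1 replicate 2 (1.14) and of Fosl1 in control replicate 3 (-0.99), and the genes do not share a common library pattern.

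Among the 45 pairs of members, Fos and Fosb followed each other most closely. Over the 9 libraries Pearson's r was 0.87 (exact permutation p = 0.0016, adjusted p = 0.070 over 45 pairs) and Spearman's rho 0.90 (exact permutation p = 0.0020, adjusted p = 0.091). Without the 2 libraries farthest from the median of Fos, r was 0.87, and it was 0.85 for deviations from the group means. None of the 45 pairs passed at an adjusted p under 0.05, and 3 had an unadjusted exact permutation p under 0.05 for r. Besides Fos with Fosb, these ran in opposite directions. Jun with Ier3 gave r = -0.66 and Jun with Ier2 r = -0.64 (exact permutation p = 0.021 and 0.0475, adjusted p = 0.43 each). Fosb with Ier2 (r = 0.67), Junb with Ier2 (r = 0.655) and Fos with Zfp36 (r = 0.64) ranked above Fos with Ier2. Fos with Ier2 gave r = 0.63 and rho = 0.58 (exact permutation p = 0.077 and 0.11, adjusted p = 0.43 and 0.40), and r was 0.57 without the 2 farthest libraries. Fos with Fosl1 gave r = -0.01 and rho = 0.22 (exact permutation p = 0.98 and 0.58, adjusted p = 0.98 and 0.84). The median r over the 45 pairs was 0.21, with 7 above 0.5 and 4 below -0.5. All pairs share their libraries and so share depth and cell makeup. Fos had no value between 8.60 and 11.7 FPKM, with 4 libraries below and 5 above, and neither side is large enough for a correlation of its own.

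**Figure D4:**
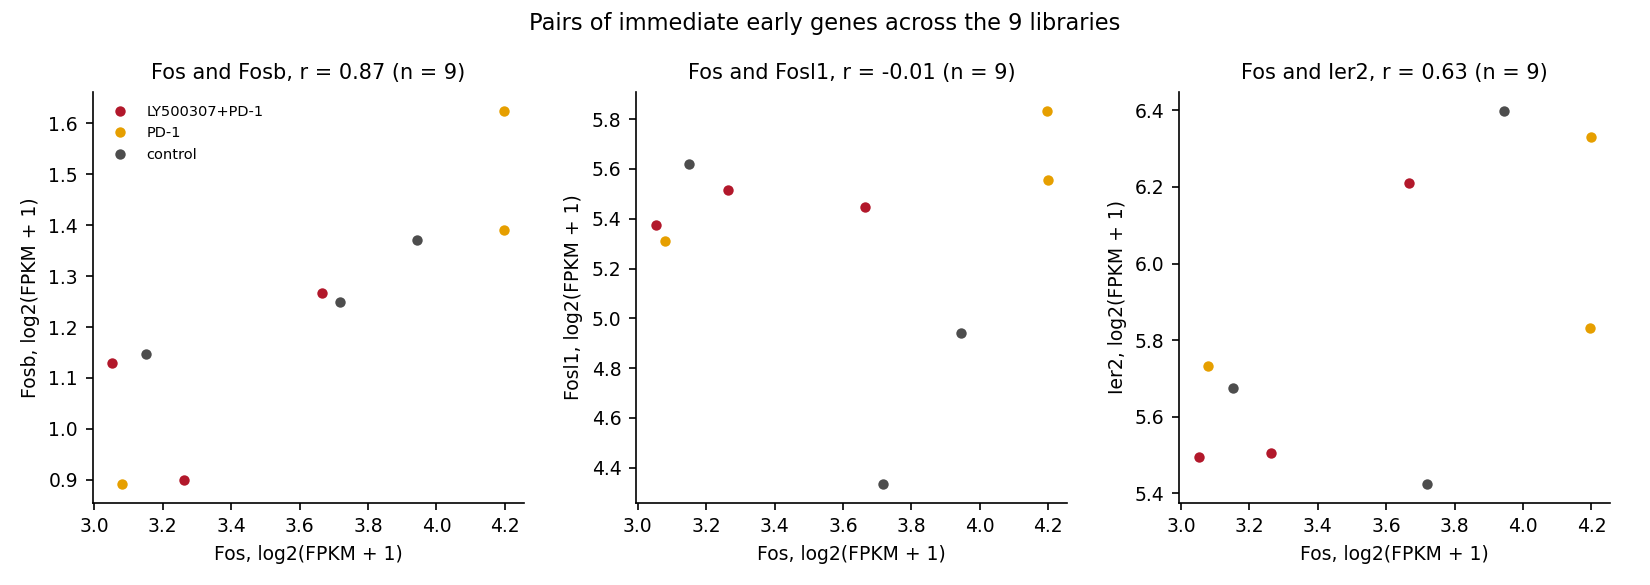
Log2(FPKM + 1) of Fos against that of Fosb, Fosl1 and Ier2 (both axes in log2 units), with 1 point per library coloured by group. Fos and Fosb lie along a line (r = 0.87), Fos and Ier2 more loosely (r = 0.63), and Fos and Fosl1 show no slope (r = -0.01), with control replicate 3 lowest in Fosl1.

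The 5 erythroid markers (4 hemoglobin genes and Alas2) summed to 43.6, 66.3 and 25.1 FPKM in LY500307+PD-1, to 137, 82.1 and 133 FPKM in PD-1 and to 91.0, 56.9 and 54.1 FPKM in control. The 3 highest sums were those of PD-1 replicates 1 and 3 and control replicate 1, which were also the 3 libraries with the highest Fos. Of the erythroid markers, 4 of 5 were at 1 FPKM or more in all libraries, and no marker was at 0 throughout. Summed endothelial markers were 38.3 to 49.4 FPKM in LY500307+PD-1, 50.1 to 69.7 FPKM in PD-1 and 58.4 to 90.2 FPKM in control. The part of blood or vessel cells in the level of Fos was not tested.

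Outside the 10, the genes whose pattern over the 9 libraries was most like the mean deviation of the members were 1700021F02Rik (r = 0.98, between 0 and 1.56 FPKM), Gm3362 and Gm4613 (r = 0.96 each), the ribosomal protein gene Rps13 (r = 0.95) and the small nucleolar RNA host gene Snhg15 (r = 0.94). Most like Fos were Snapc2 (r = 0.94), Slc8b1 and Amz2 (r = 0.93 each), n-R5s196 and Strbp (r = 0.92 each). These are the 5 highest of 13990 genes over 9 libraries and are given as a description. Among all genes tested, 20 had a higher r with Fos than Fosb did, and 538 a higher one than Ier2 did.

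Other genes of the same response, taken from lists of known roles, showed no call either. Of 30 further immediate early genes 27 were tested, and 0 passed in any comparison. In PD-1 against control 19 were higher and 8 lower, with a median log2 fold change of 0.04. In LY500307+PD-1 against control 18 were higher (median 0.06), and 14 were higher in LY500307+PD-1 against PD-1 (median 0.00). The smallest unadjusted p in that list belonged to Csrnp1, a nuclear protein induced by axin, at 9.60 ± 1.64 FPKM in LY500307+PD-1 and 6.97 ± 0.998 FPKM in control, followed by Nfkbiz, an atypical IkB protein, at 13.8 ± 3.15 FPKM in PD-1 and 10.5 ± 1.74 FPKM in control (SD, n = 3 each). Npas4 and Arc, which are induced mainly in neurons, and Nr4a3 were under 1 FPKM in each library and were not tested.

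Upstream, the list of the ERK and serum response pathway runs from Ras proteins to Srf and its partners. It also holds the JNK and p38 kinase genes Mapk8, Mapk9 and Mapk14, and Creb1. All 22 genes of this list were tested. In PD-1 against control 10 were higher and 12 lower (median -0.02), in LY500307+PD-1 against control 13 were higher (median 0.06), and 9 were higher in LY500307+PD-1 against PD-1 (median -0.01). Rps6ka3, the kinase RSK2 that ERK activates, stood at 7.76, 5.61 and 5.21 FPKM in PD-1 and at 0.952, 1.48 and 1.70 FPKM in control, so that the groups did not overlap. Its log2 fold change of 1.59 (SE 0.22) had a limma adjusted p of 0.23 over all genes. It stood at 1.25, 2.60 and 1.59 FPKM in LY500307+PD-1, below all PD-1 libraries (log2 fold change -1.37, SE 0.22, limma adjusted p = 0.91). Mapk3, which encodes ERK1, averaged 65.5 ± 3.79 FPKM in LY500307+PD-1 and 79.7 ± 2.20 FPKM in control (SD, n = 3 each), with groups that did not overlap and an adjusted p of 1. The 12 genes listed as ERK feedback inhibitors had medians of 0.05, 0.00 and -0.09 in the 3 comparisons. Among them Dusp2, a nuclear MAP kinase phosphatase of immune cells, stood at 3.33 ± 0.111 FPKM in LY500307+PD-1 and 5.14 ± 0.581 FPKM in PD-1 (adjusted p = 1.00), and Dusp4 at 7.59 ± 3.88 FPKM in LY500307+PD-1 and 10.7 ± 0.446 FPKM in control (adjusted p = 1).

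Downstream, 13 of 14 AP-1 target genes were tested and 0 passed. Their medians were 0.03, 0.09 and 0.02 in PD-1 against control, LY500307+PD-1 against control and LY500307+PD-1 against PD-1. Plaur, the urokinase receptor, averaged 36.5 ± 4.29 FPKM in PD-1 and 28.0 ± 1.94 FPKM in control, and Spp1, the secreted phosphoprotein osteopontin, 1539 ± 492 FPKM in LY500307+PD-1 and 2381 ± 388 FPKM in control (SD, n = 3 each), each with groups that did not overlap and limma adjusted p of 1.00 and 1. Of 14 other AP-1 family genes, some of them also in the list of further immediate early genes, 0 passed, with medians of 0.03, 0.07 and 0.05, and the smallest p belonged to Batf2, at 4.46 ± 0.808 FPKM in LY500307+PD-1 and 3.61 ± 0.652 FPKM in PD-1. Next was Jund, at 476 ± 45.5 FPKM in LY500307+PD-1 and 407 ± 96.1 FPKM in control. Of 14 genes of the Zfp36 family and its target mRNAs, Ier3 among them, 11 were tested and 0 passed. In PD-1 against control 10 of the 11 were higher (median 0.08), in LY500307+PD-1 against control 3 (median -0.21), and 2 were higher in LY500307+PD-1 against PD-1 (median -0.13). The smallest p belonged to Elavl1, which encodes the stabilizing protein HuR, at 6.52 ± 2.77 FPKM in LY500307+PD-1 and 8.75 ± 0.306 FPKM in PD-1. In the same list Zfp36l1 stood at 31.8 ± 3.51 FPKM in LY500307+PD-1 and 38.8 ± 7.19 FPKM in control.

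Heat shock genes, which like immediate early genes can respond to the handling of cells, were higher for 10 of 10 in PD-1 against control (median log2 fold change 0.21), 8 of 10 in LY500307+PD-1 against control (median 0.13) and 2 of 10 in LY500307+PD-1 against PD-1 (median -0.12), and 0 of 10 passed in each. Hsp90aa1 averaged 165 ± 35.3 FPKM in PD-1 and 111 ± 11.6 FPKM in control, without overlap, and Hsph1 14.5 ± 3.92 FPKM in PD-1 and 8.94 ± 2.92 FPKM in control, with overlap (SD, n = 3 each). The part of handling in these values was not tested.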

How the data were processed

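The members and gene lists were chosen with earlier results of these data known, and the motifs, the promoters and stretches shown, the plotted pairs and the marker sums set beside members were chosen after their values were seen. The authors deposited 1 table of gene values per library, taken here as FPKM from the values, since the file header names no unit. Per the submitters' processing notes, CASAVA 1.8, Bowtie2, DESeq2 and the build mm9 were used, with no role or order given. Total RNA was depleted of ribosomal RNA and made into stranded libraries, per the labels' protocols. Identifiers were matched without version to GENCODE M21 (GRCm38), which named 52403 of 52550 rows, and all positions come from that annotation.

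Depth was read from the low values of genes with 1 transcript of 300 nt or longer. Only 17.3% to 33.6% of these lay within 0.02 of a whole fragment, so whole reads were not recovered, and limma took the place of a count test. The 13990 genes that reached 1 FPKM in 3 or more libraries were fitted as log2(FPKM + 1) in limma 3.58.1 (R 4.3.3) with trend and robust moderation, all 9 libraries and no covariate, and p-values were adjusted by Benjamini-Hochberg over all genes tested at a threshold of 0.05. All 10 members are named. Each other list, in which none passed, is represented by its 2 genes of smallest unadjusted p in any comparison, and the 5 genes most alike in pattern are those of highest Pearson r. Correlations used exact permutation of libraries (two-sided; Python 3.11.15, scipy 1.17.1), and promoter sequences are RefSeq's. Other settings were a TPM scale, quantile normalization, a pseudocount of 0.1, no filter, only the 6 libraries compared, a replicate block and leaving out each library.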

Additional observations from a re-analysis of the deposited data

How the results depend on the processing

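In each of the 3 comparisons, 0 of the 10 immediate early genes were called under the TPM scale, quantile normalization, the pseudocount of 0.1, no filter on low values, only the 6 libraries compared, the replicate block and every library left out. The count over all genes was 0 under the settings that kept the libraries, and with the replicate block it was 0 in each comparison. Deviations from the group means correlated at r from -0.12 to 0.27 over 13990 genes in the 9 pairs of same-numbered libraries, of which 3 were over 0.1, and at -0.36 to 0.26 in the 18 pairs of other numbers. Since not every same-numbered pair was over 0.1, the numbers were not taken as pairs. With 1 library left out, genes called ranged from 0 to 1 in PD-1 against control (1 without PD-1 replicate 1, PD-1 replicate 3 or control replicate 1), from 0 to 2 in LY500307+PD-1 against control (1 without control replicate 1, and 2 without control replicate 2 or LY500307+PD-1 replicate 2) and from 0 to 2 in LY500307+PD-1 against PD-1 (1 without LY500307+PD-1 replicate 2 or PD-1 replicate 3, and 2 without PD-1 replicate 1), and none of these was a member. On the TPM scale the median of all genes lay between -0.02 and 0.01.

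Single members, none of them called, changed direction as follows, and the cause was not tested. Under quantile normalization Dusp1 was at -0.0038 in LY500307+PD-1 against PD-1. With 1 library left out, log2 fold changes in PD-1 against control ranged from -0.0061 to 0.59 for Fos, -0.11 to 0.25 for Fosb, -0.22 to 0.15 for Jun, -0.050 to 0.18 for Junb, -0.072 to 0.42 for Ier2, -0.16 to 0.25 for Ier3 and -0.0019 to 0.47 for Dusp1. In LY500307+PD-1 against control they ranged from -0.16 to 0.20 for Jun, -0.32 to 0.14 for Junb, -0.33 to 0.19 for Ier2 and -0.061 to 0.24 for Zfp36. In LY500307+PD-1 against PD-1 they ranged from -0.25 to 0.011 for Fosl1, -0.41 to 0.050 for Junb, -0.32 to 0.43 for Egr1 and -0.15 to 0.28 for Dusp1.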
